A study of Mus musculus with 11 samples.

Results

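The 4 genes 1600029D21Rik, Car4, Cdh1 and Ccdc80 were examined among the 22068 gene symbols measured in myeloid cells of irradiated mouse tumours. They were chosen by their measured values, since the mean RPKM (reads per kilobase of transcript and per 1 M reads) of each was over 10-fold lower in STAT3KO than in WT libraries. The low level in STAT3KO is therefore how the genes were found and carries no test here. Of the genes with a WT mean of at least 5 RPKM, 16 passed this limit. These 4 were grouped from among them as surface and epithelial-like genes. The 10-fold limit did not use how the genes vary among libraries or how they behave in the TLR9KO libraries. The 4 genes and the lists of their relatives were chosen with earlier results of these data known. What the relatives do is thus no independent readout.

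RNA was sequenced from 11 samples of CD11b-positive cells, which were pulled with antibodies and magnetic beads from subcutaneous tumours in C57BL/6 mice and not cultured. All tumours had received 15 Gy of local radiation 4 days before harvest, so no group is without irradiation. The 4 STAT3KO samples came from mice with a floxed Stat3 gene and the MxCre transgene, the 4 TLR9KO samples from mice without Tlr9, and the 3 WT samples from wild-type mice. MxCre is driven by an interferon-inducible promoter that also acts outside myeloid cells, so Stat3 loss need not be limited to the cells measured. The labels name no tumour line or age, and they leave unsaid if each replicate is its own animal. The p-values therefore measure only how far these samples scatter, and part of that scatter may be technical. Itgam, which encodes CD11b, ran from 177.2 to 328.1 RPKM over the 11 libraries, and the macrophage gene Csf1r from 234.9 to 360.2 RPKM. Neither was level across groups. Every STAT3KO library had less Itgam (190.5 to 228.2 RPKM) than any WT library (293.9 to 312.8 RPKM), while TLR9KO libraries spanned both ranges. Csf1r overlapped between STAT3KO and WT, but TLR9KO libraries (at most 299.6 RPKM) lay below WT libraries (at least 317.7 RPKM). What these differences mean for the 4 genes was not tested. Stat3 averaged 18.2 ± 1.85 RPKM in STAT3KO, 64.3 ± 4.27 RPKM in TLR9KO and 73.1 ± 2.78 RPKM in WT (SD, n = 4, 4 and 3). Tlr9 averaged 32.5 ± 19.5 RPKM in STAT3KO, 5.77 ± 1.72 RPKM in TLR9KO and 30.3 ± 10.6 RPKM in WT. The estimated depth was 30 to 53.15 M reads per library, with 15123 to 16237 symbols above 0.

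STAT3 is a transcription factor that cytokine receptors such as those for interleukin 6 and interleukin 10 activate in myeloid cells, and TLR9 is an endosomal receptor for DNA with unmethylated CpG. The 4 genes encode proteins of the cell surface or the matrix, and this kind was part of how they were grouped. 1600029D21Rik, which RefSeq lists under the symbol Plet1, encodes a surface glycoprotein held by a glycosylphosphatidylinositol (GPI) anchor and known from placenta and epithelial progenitor cells. Car4 encodes a GPI-anchored carbonic anhydrase, which interconverts carbon dioxide and bicarbonate outside the cell. Cdh1 encodes E-cadherin, the adhesion protein of epithelial junctions, which macrophages also make after interleukin 4. Ccdc80 encodes a secreted matrix-associated protein known from fibroblasts and adipocytes.

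The promoters of 1600029D21Rik and Car4 are shown because they belong to the 2 genes with the lowest STAT3KO level relative to WT, and because they differ in where a TATA-type motif lies. They are the 2 of the 4 genes matched in the RefSeq promoter table used here, and Cdh1 and Ccdc80 are named only. Each window holds 250 bases before and 50 bases after the annotated start on the plus strand, 5′ to 3′, at chr9:50494275-50494574 and chr11:84957504-84957803 of build GRCm38.p6, which is not the mm9 build of the expression files. Capitals mark the motif TATAAA.
1600029D21Rik: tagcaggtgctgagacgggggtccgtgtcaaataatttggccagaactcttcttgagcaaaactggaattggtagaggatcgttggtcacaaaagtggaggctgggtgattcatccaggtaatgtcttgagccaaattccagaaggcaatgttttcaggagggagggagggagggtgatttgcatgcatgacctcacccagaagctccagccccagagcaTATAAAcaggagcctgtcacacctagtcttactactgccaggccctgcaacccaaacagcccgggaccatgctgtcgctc
Car4: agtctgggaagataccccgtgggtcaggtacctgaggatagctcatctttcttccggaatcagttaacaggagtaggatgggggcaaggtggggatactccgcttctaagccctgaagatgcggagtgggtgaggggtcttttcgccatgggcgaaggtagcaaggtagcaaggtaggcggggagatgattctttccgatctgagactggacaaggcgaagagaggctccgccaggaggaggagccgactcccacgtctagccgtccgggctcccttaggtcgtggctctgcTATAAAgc
TATAAA begins 30 bases before the annotated start of 1600029D21Rik and 42 bases after that of Car4, and 13.6% of 32851 RefSeq promoter windows of this length hold it on either strand. The spacing forms TTCNNNGAA and TTCNNNNGAA, the letters that STAT proteins prefer, were searched on both strands and have no match in either window. They are found in 8.30% and 6.95% of all windows. A missing match says only that these letters are not in this window.

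Of the genes with a WT mean of at least 5 RPKM, 7118 in number, 16 were over 10-fold lower in STAT3KO than in WT. Car4 had the largest ratio at 367-fold, 1600029D21Rik came next at 58.5-fold, and Cdh1 at 22.6-fold and Ccdc80 at 15.3-fold were the sixth and seventh in order. The nearest genes inside the limit were Flrt3 (10.8-fold), which encodes a leucine-rich transmembrane protein, the retinoic acid hydroxylase gene Cyp26b1 (10.7-fold) and the GPI-anchored receptor gene Gfra2 (10.4-fold). Just outside it were the nuclear receptor gene Nr4a2 and the lipoxygenase gene Alox15, each at 9.28-fold, and the receptor gene Gprc5a (8.79-fold). Tests covered the 10557 genes whose average over the 11 libraries reached 1 RPKM, and 0.208% of them were over 10-fold lower in STAT3KO. All 4 genes passed that filter. Ccdc80 alone had a STAT3KO mean above 1 RPKM, so the other 3 genes passed through their TLR9KO and WT levels.

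1600029D21Rik had 0.86, 0.21, 0.71 and 0.57 RPKM in the 4 STAT3KO libraries, 20.87, 76.57, 67.22 and 44.31 RPKM in TLR9KO, and 31.49, 51.85 and 19.77 RPKM in WT. Every STAT3KO library was below 1 RPKM, and the TLR9KO and WT libraries overlapped each other far above that. The STAT3KO mean of 0.588 ± 0.278 RPKM was 1.12% of the TLR9KO mean of 52.2 ± 24.9 RPKM and 1.71% of the WT mean of 34.4 ± 16.2 RPKM. On the log2(RPKM + 1) scale, which understates differences of low genes, STAT3KO minus WT was -4.39 ± 0.41 (SE). The lowest WT library had 23.0 times the level of the highest STAT3KO library. The gene's SD was 47.3% of the mean in STAT3KO, 47.7% in TLR9KO and 47.2% in WT, so its spread between libraries was of like size in the 3 groups.

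Car4 had 0.03, 0.09, 0.06 and 0.00 RPKM in STAT3KO, 19.07, 3.57, 0.38 and 3.07 RPKM in TLR9KO, and 33.12, 7.99 and 8.42 RPKM in WT. The STAT3KO values stand for about 2.00, 3.67, 3.06 and 0 reads at the estimated depths, so the gene was at the limit of detection there and the size of its ratio is imprecise. STAT3KO averaged 0.045 ± 0.0387 RPKM, TLR9KO 6.52 ± 8.48 RPKM and WT 16.5 ± 14.4 RPKM, a STAT3KO level of 0.690% of TLR9KO and 0.273% of WT. Of the 4 genes this was the most uneven. Its TLR9KO libraries spanned a 50.2-fold range, with replicate 1 at 19.07 RPKM and replicate 3 at 0.38 RPKM, and WT replicate 1 was near 4 times the other WT libraries (a range of 4.15-fold). The log2 difference of STAT3KO minus WT was -3.77 ± 0.73.

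Cdh1 had 0.81, 0.73, 0.82 and 1.04 RPKM in STAT3KO, 11.14, 8.45, 3.06 and 6.39 RPKM in TLR9KO, and 25.36, 17.45 and 14.83 RPKM in WT. No groups overlapped, with TLR9KO between the STAT3KO and WT libraries. The means were 0.85 ± 0.133 RPKM in STAT3KO, 7.26 ± 3.41 RPKM in TLR9KO and 19.2 ± 5.48 RPKM in WT. STAT3KO stood at 11.7% of TLR9KO and 4.42% of WT, and the log2 difference of STAT3KO minus WT was -3.42 ± 0.30. The STAT3KO libraries lay close together, with an SD of 15.6% of their mean.

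Ccdc80 had 1.24, 1.29, 1.09 and 1.47 RPKM in STAT3KO, 11.92, 24.60, 29.15 and 20.08 RPKM in TLR9KO, and 18.28, 26.06 and 13.88 RPKM in WT. STAT3KO was again the lower group in each library, and the WT libraries fell within the TLR9KO range. The means were 1.27 ± 0.157 RPKM in STAT3KO, 21.4 ± 7.35 RPKM in TLR9KO and 19.4 ± 6.17 RPKM in WT. STAT3KO was at 5.94% of TLR9KO and 6.56% of WT, with a log2 difference of STAT3KO minus WT of -3.13 ± 0.26. It kept the highest STAT3KO level of the 4 genes in RPKM, which is per length.

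**Figure D1:**
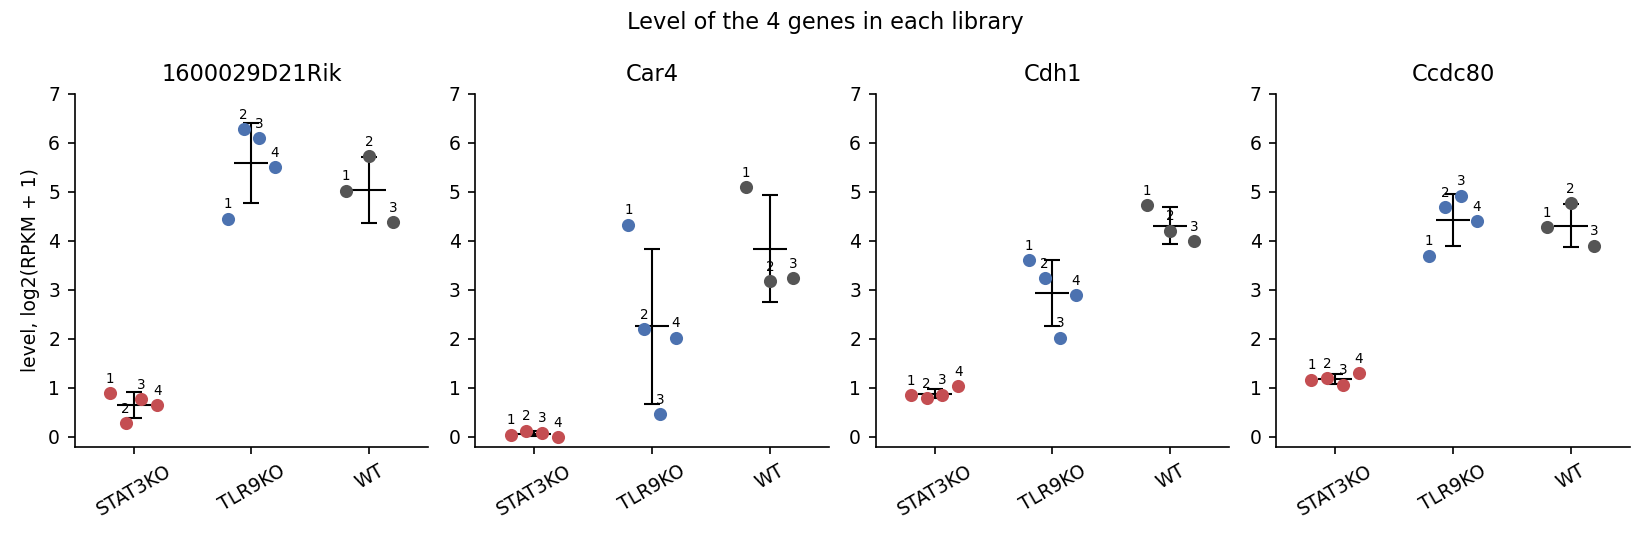
Level of each gene as log2(RPKM + 1) in every library of STAT3KO, TLR9KO and WT, numbered by replicate, with bars for the group mean and SD. All STAT3KO libraries sit below all TLR9KO and WT libraries, most narrowly for Car4 in TLR9KO replicate 3 at 0.38 RPKM, and the TLR9KO points lie below the WT points for Cdh1.

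STAT3KO and WT libraries did not overlap for 4 of the 4 genes, which the choice of genes by their group means makes likely. Over all genes tested, 16.9% were lower in STAT3KO without overlap. STAT3KO libraries also lay below every TLR9KO library for 4 of 4 genes, against 10.6% of the genes tested (22.8% of all genes passed the test of STAT3KO minus TLR9KO), and this comparison shares the STAT3KO libraries with the choice. The lowest TLR9KO library was 24.3 times the highest STAT3KO library for 1600029D21Rik, 8.11 times for Ccdc80, 4.22 times for Car4 and 2.94 times for Cdh1. In log2 units STAT3KO minus TLR9KO was -4.93 ± 0.38 for 1600029D21Rik, -3.24 ± 0.24 for Ccdc80, -2.19 ± 0.67 for Car4 and -2.05 ± 0.28 for Cdh1.

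Of the 4 genes Cdh1 passed the test of TLR9KO minus WT and the other 3 did not. Cdh1 fell to 37.8% of the WT mean in TLR9KO, with a log2 difference of -1.37 ± 0.30 and no overlap between the 4 TLR9KO and 3 WT libraries (limma adjusted p = 0.00703), which held for 13.3% of the genes tested in this direction. Car4 averaged 39.5% of WT, yet its TLR9KO replicate 1 exceeded 2 of the 3 WT libraries, and its difference of -1.58 ± 0.73 did not pass (limma adjusted p = 0.121). 1600029D21Rik averaged 152% of WT (0.54 ± 0.41, limma adjusted p = 0.345), and Ccdc80 110% of WT (0.11 ± 0.26, limma adjusted p = 0.777). Both overlapped WT, and a p that misses the threshold does not show equal levels. The WT libraries in this comparison also entered the choice of the genes. Whether the TLR9KO differences of the 4 genes differ from each other was not tested.

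Read against all genes, 1 of 4 called lower and 0 of 4 called higher compare with 30.6% of genes called in TLR9KO minus WT, 10.6% lower and 20% higher. At an unadjusted p under 0.05 the count was also 1 of the 4. TLR9KO minus WT differences followed transcript GC content across genes (Spearman -0.552), while the 4 transcripts had 46.1% to 51.3% GC. With a correction for GC and length the Cdh1 difference was -1.26 (limma adjusted p = 0.0163) and that of 1600029D21Rik was 0.22 (0.743). Without TLR9KO replicate 1 the Car4 difference passed at -2.27 (limma adjusted p = 0.00979) and that of 1600029D21Rik at 0.92 (0.0466). The Ccdc80 difference was -0.05 without TLR9KO replicate 3 and -0.09 without WT replicate 3, and it passed in no setting.

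**Figure D2:**
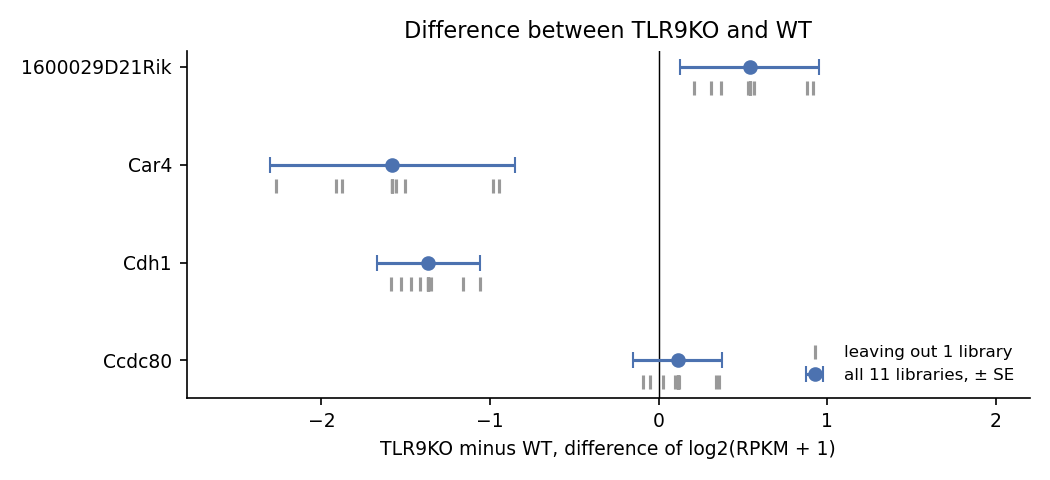
TLR9KO minus WT difference in log2(RPKM + 1) for each gene, with the model's standard error, and below it a tick for each value with 1 library left out. The Cdh1 values stay between -1.59 and -1.06, Car4 between -2.27 and -0.95, 1600029D21Rik between 0.21 and 0.92, and Ccdc80 between -0.09 and 0.36, across 0.

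The other genes past the 10-fold limit give the surroundings of these values. TLR9KO means were below WT for 13 of the 16 genes, and the exceptions were 1600029D21Rik at 152% of WT, Pdcd1lg2 at 143% and Ccdc80 at 110%. The product of Pdcd1lg2 is PD-L2, which binds the inhibitory receptor PD-1 on T cells. The WT means used here as the denominator are also those by which the genes were chosen. In the test of TLR9KO minus WT 3 of the 16 passed, Cdh1, the immunity-related GTPase gene Irgc1 and the haemoglobin gene Hbb-b2. Hbb-b2 was at 2.42% of WT in TLR9KO and 2.99% in STAT3KO, unlike the other 15, whose TLR9KO means were 37.0% of WT or more. Car4, Cdh1 and Gfra2 had the lowest TLR9KO shares after Hbb-b2, at 39.5%, 37.8% and 37.0% of WT.

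**Figure D3:**
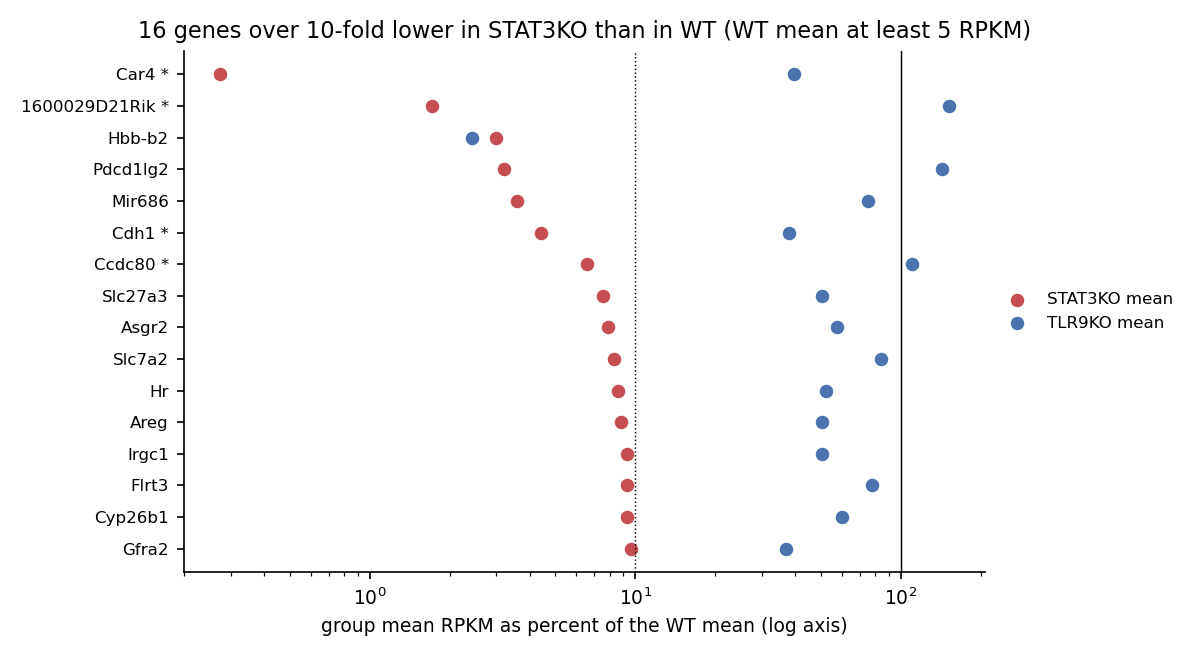
STAT3KO and TLR9KO means as percent of the WT mean on a log axis for the 16 genes over 10-fold lower in STAT3KO, the 4 genes described here being starred. STAT3KO points lie left of the dotted line at 10% by the choice of genes, while TLR9KO points spread from 2.42% for Hbb-b2 to 152% for 1600029D21Rik.

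Within the TLR9KO and WT libraries some of the 4 genes varied together in pairs by Pearson's r. Over these 7 libraries the levels of 1600029D21Rik and Ccdc80 moved together, with Pearson's r = 0.942 (two-sided exact permutation p = 0.00377, 0.0190 adjusted over 6 pairs) and Spearman's rho = 0.857 (exact p = 0.0238, adjusted 0.0714). Car4 and Cdh1 also moved together, with r = 0.901 (exact permutation p = 0.00635, adjusted 0.0190) and rho = 0.857 (exact p = 0.0238, adjusted 0.0714). With each group centred on its own mean the r was 0.973 for the 1600029D21Rik pair and 0.933 for the Car4 pair, each with an adjusted p of 0.0417 by exact permutation within groups. Neither rank correlation passed after adjustment.

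The pairs differ in how much they rest on single libraries. Without the 2 libraries farthest from the median of 1600029D21Rik, TLR9KO replicate 1 and WT replicate 3, its r with Ccdc80 was 0.831. For Car4 and Cdh1, r was 0.592 without TLR9KO replicate 3 and WT replicate 1, so that relation rests largely on those libraries. Across the pairs the signs were negative, with r = -0.690 for 1600029D21Rik and Car4, -0.670 for Car4 and Ccdc80, -0.521 for 1600029D21Rik and Cdh1, and -0.428 for Cdh1 and Ccdc80. None of these 4 passed (exact permutation, adjusted p of 0.149, 0.149, 0.274 and 0.338; the rho values of -0.679, -0.750, -0.464 and -0.393 did not pass either, at 0.164, 0.133, 0.363 and 0.396). TLR9KO replicate 1 was the highest TLR9KO library for Car4 and Cdh1 and the lowest for 1600029D21Rik and Ccdc80.

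**Figure D4:**
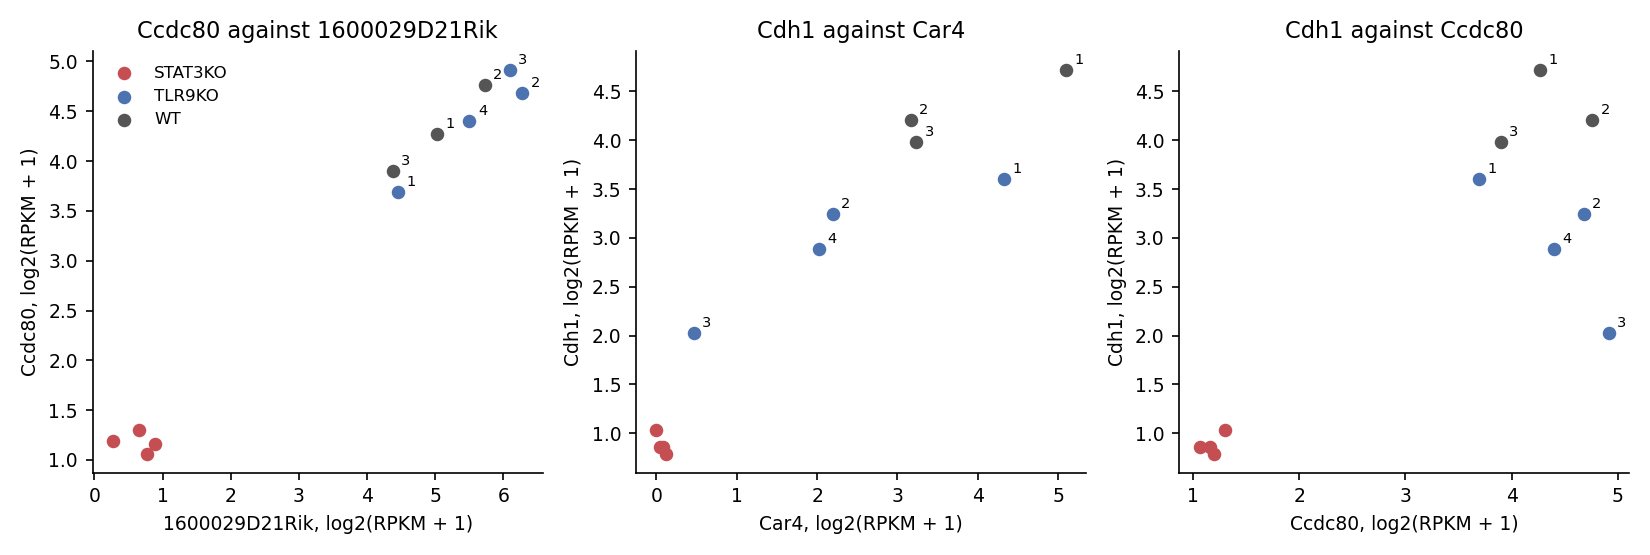
Levels of gene pairs as log2(RPKM + 1) in every library, with TLR9KO and WT points numbered by replicate. Ccdc80 follows 1600029D21Rik in the left panel (r = 0.942 over the 7 TLR9KO and WT libraries) and Cdh1 follows Car4 in the middle (0.901), while Cdh1 and Ccdc80 on the right do not follow each other (-0.428).

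Genes with the most similar pattern were ranked by Pearson's r over all 11 libraries, which the gap between STAT3KO and the rest dominates. For 1600029D21Rik they were Ccdc80 (0.994), Tmem168 (0.987), Pdcd1lg2 (0.983) and the chemokine gene Ccl17 (0.976). Ccdc80 had 1600029D21Rik (0.994), Tmem168 (0.988), Pdcd1lg2 (0.983) and the heparan sulfate sulfotransferase gene Hs3st3b1 (0.982). Among these genes Pdcd1lg2 averaged 0.613 RPKM in STAT3KO, 27.5 RPKM in TLR9KO and 19.2 RPKM in WT, and Tmem168 averaged 9.04 RPKM in STAT3KO, 18.0 RPKM in TLR9KO and 18.0 RPKM in WT. Car4 was most similar to Cyp26b1 (0.989), Ptgfrn (0.972), Zfp609 (0.970) and 9430020K01Rik (0.965), with Cdh1 ranked 9 (0.948). Cdh1 was most similar to Ptgfrn (0.984), which encodes a tetraspanin-associated membrane protein, Sh3pxd2b (0.981), Slc41a1 (0.980) and Heatr1 (0.979). For these genes TLR9KO lay between STAT3KO and WT, as for Ptgfrn at 0.828 RPKM in STAT3KO, 2.2 RPKM in TLR9KO and 3.73 RPKM in WT.

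A ranking over the 7 TLR9KO and WT libraries alone, added after the data were seen, changed most of these names. Ccdc80 was then ranked 30 for 1600029D21Rik, and Cdh1 ranked 109 for Car4. Cyp26b1 stayed next to Car4 at 0.985, after Cercam at 0.987. The nearest gene to Cdh1 was Ctnnd1 (0.994), which encodes p120 catenin, the protein that binds the juxtamembrane tail of E-cadherin. Nrp2 (0.992), Dcaf7 (0.991) and Dhx33 (0.991) came almost as near, so the rank of Ctnnd1 does not single it out. Ctnnd1 averaged 32.6 ± 3.79 RPKM in STAT3KO, 31.7 ± 6.15 RPKM in TLR9KO and 44.3 ± 4.71 RPKM in WT. Its STAT3KO level was thus near that of TLR9KO, where Cdh1 differed 8.54-fold. Nearest to 1600029D21Rik was the amidase gene Nit1 (0.981), and to Ccdc80 the gene Coq5 (0.982) of ubiquinone synthesis.

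E-cadherin is an epithelial protein, but the libraries held little else of epithelium. Of 26 other epithelial markers 23 stayed below the filter and reached at most 1.62 RPKM in any library. The 8 keratin genes reached at most 0.16 RPKM, Krt14 was listed at 0 throughout, and the adhesion molecule gene Epcam averaged 0.0425 RPKM in STAT3KO, 0.213 RPKM in TLR9KO and 0.320 RPKM in WT. These markers describe the libraries and cannot decide whether the 4 genes themselves are epithelial-like. Which cells made the transcripts of the 4 genes was not tested. The marker that moved was Spint1, which encodes a membrane inhibitor of serine proteases. It fell to 5.41 ± 1.15 RPKM in STAT3KO, against 19.7 ± 6.23 RPKM in TLR9KO and 27.8 ± 3.15 RPKM in WT (STAT3KO minus WT -2.18 ± 0.24, limma adjusted p = 7.54e-05; STAT3KO minus TLR9KO -1.65 ± 0.22, 0.000859). TLR9KO minus WT was -0.53 ± 0.24 for Spint1 and did not pass (limma adjusted p = 0.116). Summed over the list, the STAT3KO libraries had 7.30 to 11.8 RPKM, TLR9KO libraries 14.4 to 31.3 RPKM and WT libraries 31.9 to 36.3 RPKM, most of it Spint1.

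**Figure D5:**
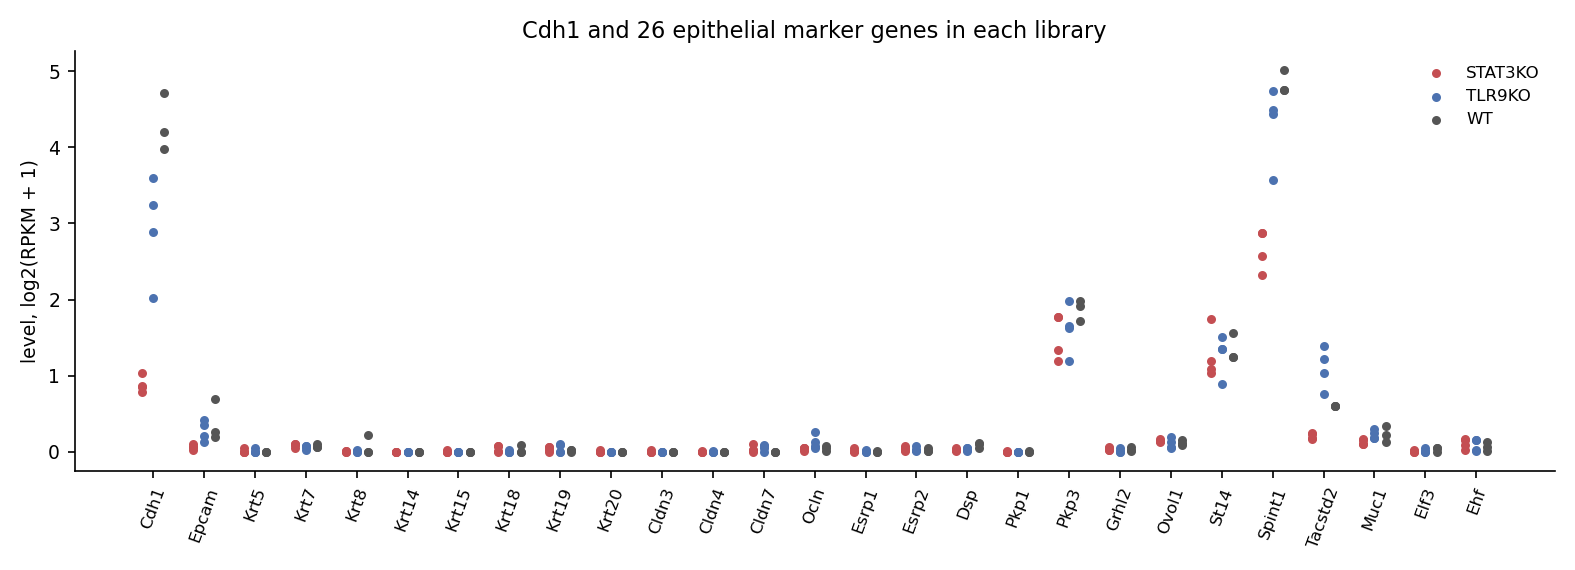
Level of Cdh1 and of 26 epithelial marker genes as log2(RPKM + 1), with a point for every STAT3KO, TLR9KO and WT library. Apart from Cdh1 only Spint1, Pkp3 and St14 passed the filter on mean RPKM, and the keratins lie at 0.16 RPKM or below.

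Most relatives of Cdh1 were too low to test. Of 22 other cadherin genes 20 stayed below the filter, at 1.33 RPKM or less in every library. Cdh2 was at 0.900 RPKM in STAT3KO, 1.10 RPKM in TLR9KO and 1.36 RPKM in WT and did not pass, while Cdh19 rose in STAT3KO, at 1.41 RPKM against 0.607 RPKM in WT (0.58 ± 0.16, limma adjusted p = 0.0129). That call was not kept with the GC and length correction (0.436) or without WT replicate 2 (0.0513). Of 16 tested genes of the E-cadherin complex, its receptors and its sheddases, 2 rose, 9 fell and 5 did not pass in STAT3KO minus WT, where 44% of all genes passed (29.2% higher, 14.8% lower). The list's median was -0.38, against 0.09 over all genes, and without WT replicate 1 only 1 rose and 4 fell. In TLR9KO minus WT 2 rose and 6 fell, with a median of -0.42 against 0.04, and 1 rose and 4 fell with the GC and length correction. Without that correction 20% of all genes were higher and 10.6% lower. In STAT3KO minus TLR9KO 4 rose and 2 fell, with a median near 0 against 0.06, where 13.4% of all genes were higher and 9.46% lower.

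Single members of that list moved in both directions. Pvrl1, which encodes the adhesion protein nectin 1, fell to 0.308 RPKM in TLR9KO against 2.93 RPKM in WT (-1.53 ± 0.20, limma adjusted p = 0.000552), and had 1.62 RPKM in STAT3KO. The GTPase gene Rap1a rose in TLR9KO, at 55.0 RPKM against 27.1 RPKM in WT (1.01 ± 0.14, limma adjusted p = 0.000691). Of 5 tested repressors of E-cadherin transcription 1 rose in STAT3KO minus WT and 1 in TLR9KO minus WT, in both cases Tcf4. The shares of all genes that were higher were 29.2% and 20%. Neither Tcf4 call was kept without WT replicate 1 (limma adjusted p = 0.0898 and 0.106) or with the replicate block. Zeb2, a zinc finger repressor of Cdh1, had 27.5 ± 4.17 RPKM in STAT3KO, 32.9 ± 4.61 RPKM in TLR9KO and 26.3 ± 7.03 RPKM in WT and passed in no comparison.

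The other carbonic anhydrases did not follow Car4 in size. Of 5 tested genes 0 rose and 1 fell in STAT3KO minus WT, with a median of -0.05 against 0.09 over all genes, and 0 passed in TLR9KO minus WT by limma (0 also at an unadjusted p under 0.05), with a median of -0.16 against 0.04. Car5b, a mitochondrial form, fell to 0.933 ± 0.245 RPKM in STAT3KO, against 1.98 ± 0.275 RPKM in TLR9KO and 2.39 ± 0.884 RPKM in WT (STAT3KO minus WT -0.79 ± 0.17, limma adjusted p = 0.00313; STAT3KO minus TLR9KO -0.63 ± 0.15, 0.0152). Car9, a hypoxia-induced membrane form, had 22.9 ± 6.60 RPKM in STAT3KO, 25.6 ± 11.5 RPKM in TLR9KO and 37.9 ± 19.9 RPKM in WT. It did not pass in any comparison, nor did Car6, Car13 or Car14. Beside the counts of this list, 29.2% of all genes were higher and 14.8% lower in STAT3KO minus WT. In TLR9KO minus WT the shares were 20% and 10.6%.

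Of 15 tested genes of bicarbonate, proton and lactate transport 2 rose and 3 fell in STAT3KO minus WT, and 0 rose and 4 fell in TLR9KO minus WT. The medians were -0.33 and -0.12. With median-ratio scaling 7 fell in STAT3KO minus WT, and with the GC and length correction 1 fell in TLR9KO minus WT. The lactate exporter gene Slc16a3 fell to 141 ± 22.8 RPKM in STAT3KO, against 304 ± 60.6 RPKM in WT (-1.09 ± 0.20, limma adjusted p = 0.00131). Of 22 tested genes for GPI-anchored surface proteins other than Car4 and 1600029D21Rik, 7 rose and 6 fell in STAT3KO minus WT, with a median of 0.20 that the GC and length correction turned to -0.22. Plaur, the urokinase receptor, fell to 139 ± 17.3 RPKM in STAT3KO against 292 ± 16.4 RPKM in WT (-1.07 ± 0.17, limma adjusted p = 0.000558), and Bst2, an interferon-induced antiviral protein, rose to 442 ± 88.5 RPKM against 178 ± 43.8 RPKM (1.31 ± 0.18, 0.000263). In TLR9KO minus WT 4 of these 22 rose and 1 fell, and with that correction 0 rose. Beside the counts of both lists, 29.2% of all genes were higher and 14.8% lower in STAT3KO minus WT. In TLR9KO minus WT the shares were 20% and 10.6%.

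Of 12 tested matrix and secreted proteins like Ccdc80, 0 rose and 4 fell in STAT3KO minus WT, with a median of -0.56. In TLR9KO minus WT 1 rose and 1 fell, with a median of -0.36, and neither call was kept without WT replicate 1. Over all genes, 29.2% were higher and 14.8% lower in STAT3KO minus WT, and 20% and 10.6% in TLR9KO minus WT. Spon1, a secreted spondin, went with Ccdc80 in that its STAT3KO level was low, at 1.02 ± 0.558 RPKM against 11.6 ± 3.24 RPKM in TLR9KO and 5.37 ± 1.84 RPKM in WT (STAT3KO minus WT -1.65 ± 0.28, limma adjusted p = 0.000829). It rose in TLR9KO relative to WT (1.00 ± 0.28, limma adjusted p = 0.0188), which did not pass without WT replicate 1 (0.0904) or with a pseudocount of 0.1 (0.0538). Fibronectin Fn1 fell in both knockouts, at 74.6 ± 15.9 RPKM in STAT3KO, 180 ± 81.2 RPKM in TLR9KO and 478 ± 143 RPKM in WT, but leaving out WT replicate 1 ended its TLR9KO call (0.0656 by limma, adjusted). The sushi-repeat genes Srpx and Srpx2 were at or near 0.

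Interleukin 4 is known to induce Cdh1 in macrophages, and of 23 tested genes of alternative activation by interleukin 4 there were 2 that rose and 12 that fell in STAT3KO minus WT. Their median was -0.85, and of all genes tested 29.2% were higher and 14.8% lower. The list was drawn up with earlier results known and holds Slc7a2, which is itself past the 10-fold limit. In TLR9KO minus WT 2 rose and 2 fell, with a median of -0.08 and 0 calls after the GC and length correction. Of all genes 20% were higher and 10.6% lower in that comparison. In STAT3KO minus TLR9KO 2 rose and 16 fell, with a median of -1.07, where 13.4% of all genes were higher and 9.46% lower. Slc7a2, an arginine transporter, had 3.11 ± 1.06 RPKM in STAT3KO, 31.5 ± 8.33 RPKM in TLR9KO and 37.4 ± 5.86 RPKM in WT. Its STAT3KO minus WT difference of -3.25 ± 0.24 is given without a test, since the limit used that contrast. The interleukin 4 receptor chain Il4ra fell to 54.2 ± 6.34 RPKM in STAT3KO, against 134 ± 24.3 RPKM in TLR9KO and 141 ± 19.6 RPKM in WT (STAT3KO minus WT -1.36 ± 0.15, limma adjusted p = 9.26e-05). Cish, a feedback inhibitor of cytokine signalling, fell in both knockouts, at 8.08 ± 2.27 RPKM in STAT3KO, 36.8 ± 7.41 RPKM in TLR9KO and 66.5 ± 10.0 RPKM in WT. Its TLR9KO call was lost with the GC and length correction (limma adjusted p = 0.0569). Arg1, the arginase gene of this state, passed in no comparison. The part of interleukin 4 in the Cdh1 level was not tested.

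In bulk samples fewer cells of a type and less RNA per cell cannot be told apart, and some markers of other cells varied with the 4 genes. Of 12 tested dendritic cell markers 1 rose, 4 fell and 7 did not pass in STAT3KO minus WT. Of all genes 29.2% were higher and 14.8% lower. Itgax fell, at 37.4 ± 12.8 RPKM in STAT3KO, 103 ± 27.7 RPKM in TLR9KO and 169 ± 36.6 RPKM in WT. Ccl5 rose, at 59.7 ± 34.0 RPKM in STAT3KO against 21.8 ± 1.57 RPKM in WT. That call was not kept with the GC and length correction (limma adjusted p = 0.123). Batf3 (7.00 to 18.13 RPKM in STAT3KO, 10.07 to 14.00 RPKM in WT) and Cd209a (3.08 to 14.87 RPKM and 3.73 to 13.81 RPKM) overlapped. The summed list had 226.8, 132.6, 342.5 and 213.8 RPKM in STAT3KO, 233.3, 449.1, 472.0 and 377.5 RPKM in TLR9KO, and 419.7, 557.6 and 342.0 RPKM in WT. Within TLR9KO and within WT its order was that of Ccdc80. Its part in the result was not tested.

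Of 9 tested melanocyte markers 0 passed in any of the 3 comparisons by limma, nor did any at an unadjusted p under 0.05. Their sum ran from 878 to 1355 RPKM over STAT3KO libraries, from 516 to 1478 RPKM over TLR9KO libraries and from 479 to 1530 RPKM over WT libraries. TLR9KO replicate 3, lowest in Car4 and Cdh1 among the TLR9KO libraries, was also lowest in that sum, and WT replicate 1, highest in both genes, was the highest. TLR9KO replicate 1, the highest of its group in both genes, was not the highest in that sum (1103 RPKM, against 1478 RPKM in TLR9KO replicate 2). The part of these markers in the result was not tested. Of 5 tested fibroblast markers 4 rose and 0 fell in STAT3KO minus WT, and 4 rose in TLR9KO minus WT. The shares of all genes that were higher were 29.2% and 20%. Summed over 12 markers, STAT3KO libraries had 17.9 to 37.6 RPKM, TLR9KO libraries 16.2 to 46.8 RPKM and WT libraries 6.82 to 11.0 RPKM. The part of these markers in the Ccdc80 level was not tested. Of 10 adipocyte markers 9 stayed at 0.45 RPKM or below, and Lep was listed at 0. The neutrophil sum was 657.7 RPKM in STAT3KO replicate 2 and 100.5 to 303.2 RPKM in the other libraries, and the 4 genes in STAT3KO replicate 2 did not stand apart from the other STAT3KO libraries beyond 1600029D21Rik at 0.21 RPKM.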

How the data were processed

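The authors deposited 1 RPKM value per gene symbol for each library, to 2 decimals, per the file headers. For TLR9KO replicate 4 the header gives no unit, and RPKM was assumed from the like range of its values. Build mm9, Bowtie 0.12.7, TopHat 1.3.1, CASAVA 1.7 and Partek are listed, per the submitters' processing notes. For the annotation, the read total in the denominator and multi-mapped reads, the sources used here give nothing.

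Depth was estimated from the RPKM steps of 29 to 48 microRNA genes per library. At the chosen depth 72.7% to 97.0% of those values came within 0.15 of whole reads, against 15.2% to 24.1% at the median depth tried. Reads per gene derived from it are approximate. No count model was fitted.

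Values were taken as log2(RPKM + 1). For the 10557 genes with a library mean of 1 RPKM or more, limma 3.58.1 in R 4.3.3 fitted the 3 group means to all 11 libraries (eBayes with trend), two-sided, with Benjamini-Hochberg adjustment over the genes tested and a threshold of 0.05. The procedure was tested on simulated data. Errors are SD beside RPKM and moderated SE beside log2 differences. Correlations between the 4 genes used exact permutation in scipy 1.17.1, with Benjamini-Hochberg adjustment over 6 pairs.

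The 4 genes and 19 related gene lists were chosen with earlier results of these data known. Named besides them are Stat3 and Tlr9, the 4 genes most correlated with each gene, the 3 genes nearest the 10-fold limit on each side, and up to 4 genes per list with the smallest adjusted p, of which some are not reported here. Other genes named (Itgam, Csf1r, Epcam, Srpx, Srpx2, Krt14, Lep, Car6, Arg1, Ctnnd1, Nit1, Coq5 and Cercam, and the genes over the 10-fold limit) were added after the values were seen. So were Nrp2, Dcaf7 and Dhx33. Alternatives were a pseudocount of 0.1, no filter on low values, median-ratio scaling, a correction for transcript GC and length (GENCODE M21), no trend in the spread, a replicate block and leaving out each library. Promoters came from RefSeq and are described beside their motifs.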

Additional observations from a re-analysis of the deposited data

Results flagged for a closer look

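Car4 in TLR9KO replicate 1 stood apart from its group, at 19.07 RPKM against 3.57, 0.38 and 3.07 RPKM in TLR9KO replicates 2 to 4, while WT libraries had 33.12, 7.99 and 8.42 RPKM. In RPKM its gap to the nearest TLR9KO library exceeded Dixon's 95% limit for 4 samples. On the log2(RPKM + 1) scale of the tests, TLR9KO replicates 1 to 4 had 4.33, 2.19, 0.46 and 2.03. Replicate 1 stood less apart on that scale. Chance alone puts about 1 in 20 groups past that limit, and 12 groups of 4 libraries were examined. The same library had the highest Cdh1 level of its group (11.14 RPKM), the lowest 1600029D21Rik level (20.87 RPKM) and the lowest Ccdc80 level (11.92 RPKM). It also had the highest fibroblast marker sum of the TLR9KO libraries (46.8 RPKM against 16.2 to 18.4 RPKM in the other 3) and the lowest dendritic cell marker sum (233.3 RPKM against 377.5 to 472.0 RPKM). The part of these cells in the Car4 value was not tested.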

How the results depend on the processing

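The fall of Cdh1 in TLR9KO relative to WT kept its direction and passed in every alternative, with log2 differences from -1.59 to -1.06 when 1 library was left out (limma adjusted p of 0.00278 to 0.0383). With 1 library left out, TLR9KO minus WT ran from 0.21 to 0.92 for 1600029D21Rik, from -2.27 to -0.95 for Car4 and from -0.093 to 0.36 for Ccdc80. The first passed at 0.92 and Car4 at -2.27, both without TLR9KO replicate 1, and Ccdc80 turned negative without TLR9KO replicate 3 (-0.05) and without WT replicate 3 (-0.093). The STAT3KO level of Car4 was 0.182% to 0.548% of WT and 0.460% to 1.92% of TLR9KO with 1 library left out, and from group medians 0.534% and 1.36%. The ranges were 3.97% to 5.27% and 9.82% to 14.2% for Cdh1, 5.74% to 7.91% and 5.17% to 6.74% for Ccdc80, and 1.41% to 2.29% and 0.937% to 1.37% for 1600029D21Rik. Genes called in TLR9KO minus WT numbered 1649 with the GC and length correction and 1989 to 3595 with 1 library left out (1989 without WT replicate 1), and in STAT3KO minus TLR9KO 1581 (without TLR9KO replicate 4) to 2709. Genes of the related lists called in TLR9KO minus WT were 19 with the correction and 22 to 45 with 1 library left out. Rap1a in STAT3KO minus WT turned to -0.080 with the correction. The causes were not tested. With the replicate block TLR9KO minus WT was -1.38 for Cdh1, 0.55 for 1600029D21Rik, -1.53 for Car4 and 0.10 for Ccdc80, with no call changed among them. The block called 4074 genes in STAT3KO minus WT, 2662 in TLR9KO minus WT and 1879 in STAT3KO minus TLR9KO. Libraries with the same number correlated at -0.29 to 0.49 in their deviations, and those with different numbers at -0.61 to 0.53. These overlapping ranges do not settle whether the numbers pair the samples. The number of libraries limits each comparison, and Car4 in STAT3KO rests on few reads.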

Other observations

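Of the macrophage lists, 10 of 14 tested macrophage markers rose and 1 fell in STAT3KO minus WT, and 4 rose and 1 fell without WT replicate 1. Of 8 tested markers of tissue-resident macrophages other than Car4, which alveolar macrophages express, 4 rose and 1 fell in STAT3KO minus WT (2 and 0 without WT replicate 2), and in TLR9KO minus WT 0 passed by limma or at an unadjusted p under 0.05. Of 6 tested erythroid and platelet markers 1 rose and 4 fell in STAT3KO minus WT and 4 fell in TLR9KO minus WT, with 2 falling in each after the GC and length correction. That list holds Hbb-b2, which is itself past the 10-fold limit. Of 4 tested T and NK cell markers 2 fell in STAT3KO minus WT, and of 2 endothelial markers 1 fell. Of 11 tested neutrophil markers 2 fell in each knockout relative to WT, in both cases Il1r2 and Trem1, and 0 rose. The list's median was 0.73 in STAT3KO minus WT and -0.23 in TLR9KO minus WT. Beside all these counts, 29.2% of all genes were higher and 14.8% lower in STAT3KO minus WT. In TLR9KO minus WT 20% were higher and 10.6% lower.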
